A study of Mus musculus with 24 samples.

Results

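The genes described here encode the non-collagen part of the extracellular matrix. They cover elastic fibre and microfibril proteins, latent TGF-beta binding proteins (LTBPs) and proteins that crosslink or process matrix. Basement membrane proteins, small leucine-rich proteoglycans and adhesive or matricellular proteins complete the list. The list held 54 genes, of which 50 had a probe set that carries 1 gene symbol, and the brightest such probe set stood for each gene. Fbn1, Efemp2 and Spp1 had no probe set under their symbols, and Loxl2 was found only in a probe set with several symbols, so these 4 were not analysed here. All 50 measured genes passed the filter on low values, among 14830 genes tested of 19661 with a probe set of 1 symbol.

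The cells were primary mouse embryonic fibroblasts (MEFs) taken at embryonic day 13.5 from 3 embryos with 1 intact Eif4e allele (Eif4e+/-) and from 3 wild-type (WT) embryos. Eif4e encodes eIF4E, the protein that binds the 5′ cap of mRNAs at the start of translation. Each embryo's cells were profiled after transformation with Ras and Myc and as untransformed cells, and each of the 12 cultures gave total RNA and RNA from heavy polysomes. The 24 Affymetrix arrays thus formed 8 groups of 3, namely transformed Eif4e+/-, transformed WT, untransformed Eif4e+/- and untransformed WT cultures in both fractions. All cells were at early passage and in exponential growth in medium with 10% serum. The titles number the Eif4e+/- embryos 1 to 3 but name every one of them as biological replicate 1, and the embryo numbers were taken here as separate embryos. The labels do not say whether a transformed culture was a clone or a pool, or how Ras and Myc were delivered.

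Fibroblasts secrete these proteins into the space around them. Fibrillins, microfibril-associated proteins and fibulins form the scaffold on which elastin is laid down, LTBPs tether latent TGF-beta to that scaffold, and lysyl oxidases crosslink elastin and collagen. Laminins, nidogens and perlecan build basement membranes, small leucine-rich proteoglycans bind collagen fibrils, and matricellular proteins such as thrombospondins, tenascin-C and periostin modify how cells attach.

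Values are log2 array intensities after RMA, the normalization used by the authors. Total RNA arrays had medians of 7.20 to 7.31 and highest values of 13.27 to 13.38, and polysomal arrays had medians of 3.40 to 3.52. Each fraction had its own level, so translational efficiency (TE), which subtracts a culture's log2 total value from its log2 polysomal value, has no absolute zero. Eif4e itself lay at 9.10, 8.84 and 9.21 in total RNA of transformed Eif4e+/- cultures, against 9.80, 9.67 and 9.40 in transformed WT cultures. In untransformed cells it lay at 8.69, 8.88 and 8.83 in Eif4e+/- cultures, against 9.21, 9.05 and 9.03 in WT cultures. The genotype groups did not overlap in either state, but the difference did not pass the adjusted test across all genes (-0.57 ± 0.12, adjusted p = 0.2, and -0.30 ± 0.12, adjusted p = 1.0, limma). The mean of 12 fibroblast markers was above the array median in every culture. It was 9.36 to 10.05 in transformed Eif4e+/-, 8.90 to 9.64 in transformed WT, 10.35 to 10.64 in untransformed Eif4e+/- and 10.40 to 10.61 in untransformed WT cultures. Single markers differed widely in transformed cultures, from Vim at 12.41 to 12.61 to Fap at 5.68 to 7.15, which is below the median. Thy1 (7.20), Pdgfra (7.24) and Pdgfrb (7.24) also lay below it in transformed WT culture 1, as did Pdgfra (7.20) in transformed Eif4e+/- culture 1. In bulk RNA, fewer cells of a type and less RNA per cell cannot be told apart.

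The 250 bases before the transcription start are given here for periostin, fibulin-5, asporin and laminin alpha-2, which were among the 5 measured genes with the largest falls on transformation. The sequences are from RefSeq on build GRCm38.p6 and run 5′ to 3′ on the gene's strand. They cover chr3:54360857-54361106 on the plus strand for Postn, chr12:101818485-101818734 on the minus strand for Fbln5, chr13:49544193-49544442 on the plus strand for Aspn and chr10:27616943-27617192 on the minus strand for Lama2. Capitals mark TATAAA on either strand.
Postn: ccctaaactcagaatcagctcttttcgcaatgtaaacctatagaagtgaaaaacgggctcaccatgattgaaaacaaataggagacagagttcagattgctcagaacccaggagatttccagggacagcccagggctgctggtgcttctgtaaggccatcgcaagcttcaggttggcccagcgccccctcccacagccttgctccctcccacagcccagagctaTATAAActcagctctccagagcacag
Fbln5: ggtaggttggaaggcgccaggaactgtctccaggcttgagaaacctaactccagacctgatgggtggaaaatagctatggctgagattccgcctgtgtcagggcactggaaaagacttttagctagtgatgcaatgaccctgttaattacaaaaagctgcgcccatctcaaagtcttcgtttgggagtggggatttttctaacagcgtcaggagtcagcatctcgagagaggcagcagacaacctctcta
Aspn: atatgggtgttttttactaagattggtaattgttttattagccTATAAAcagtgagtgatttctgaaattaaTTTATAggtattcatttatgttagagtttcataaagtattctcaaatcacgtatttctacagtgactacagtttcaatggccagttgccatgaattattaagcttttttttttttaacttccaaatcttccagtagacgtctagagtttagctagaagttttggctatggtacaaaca
Lama2: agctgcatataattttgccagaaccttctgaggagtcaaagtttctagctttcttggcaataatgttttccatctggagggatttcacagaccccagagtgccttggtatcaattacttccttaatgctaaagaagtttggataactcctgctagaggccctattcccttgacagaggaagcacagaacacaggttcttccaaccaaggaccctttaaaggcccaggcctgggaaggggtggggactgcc

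Postn carried TATAAA 26 bases before the start (first base at -26). Aspn carried it at -207 and, on the other strand, at -178, in a stretch with 30.0% G and C. The Fbln5 and Lama2 windows held no such run of letters. Promoter windows of 300 bases, reaching 50 bases past the start, were listed for 36 of the 54 genes. TATAAA, searched on both strands, was in 10 of their 47 windows (21.3%), against 13.6% of 32851 windows of all genes, and the windows were those of 9 genes, Aspn, Ecm1, Fndc1, Ogn, Plod1, Postn, Spp1, Thbs2 and Tnc. TGANTCA was in 8.51% of the members' windows against 7.81% of all, CACGTG in 4.26% against 7.15%, and GGAATG in 6.38% against 14.7%. None of these motifs contains another. These are matches of letters, not binding sites.

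Transformation lowered most of these transcripts in total RNA. Of 50 genes, 30 were lower and 2 were higher in transformed cells at an adjusted p under 0.05 (limma with embryo as a block, 6 embryos), against a background of 15.8% lower and 15.0% higher among all 14830 genes. The median difference, transformed minus untransformed, was -0.75 for the 50 genes and 0.03 for all genes tested. In 24 genes the transformed culture was lower in all 6 embryos (15.4% of all genes), for which an exact two-sided sign-flip test of 1 gene gives p = 0.0312, the smallest that 6 pairs allow. In 23 genes the 6 transformed cultures did not overlap the 6 untransformed ones in either direction (17.5% of all genes). Every role took part: 9 of 13 adhesive or matricellular genes, 6 of 9 basement membrane genes, 5 of 7 crosslinking or processing genes, 5 of 10 elastic fibre genes, 2 of 4 LTBPs and 3 of 7 small leucine-rich proteoglycans were lower. Of the 32 calls, 27 were made under all 13 alternative settings tried, and those of Fndc1, Hspg2, Lama5, Lamb1 and Loxl4 were lost under at least 1.

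**Figure D1:**
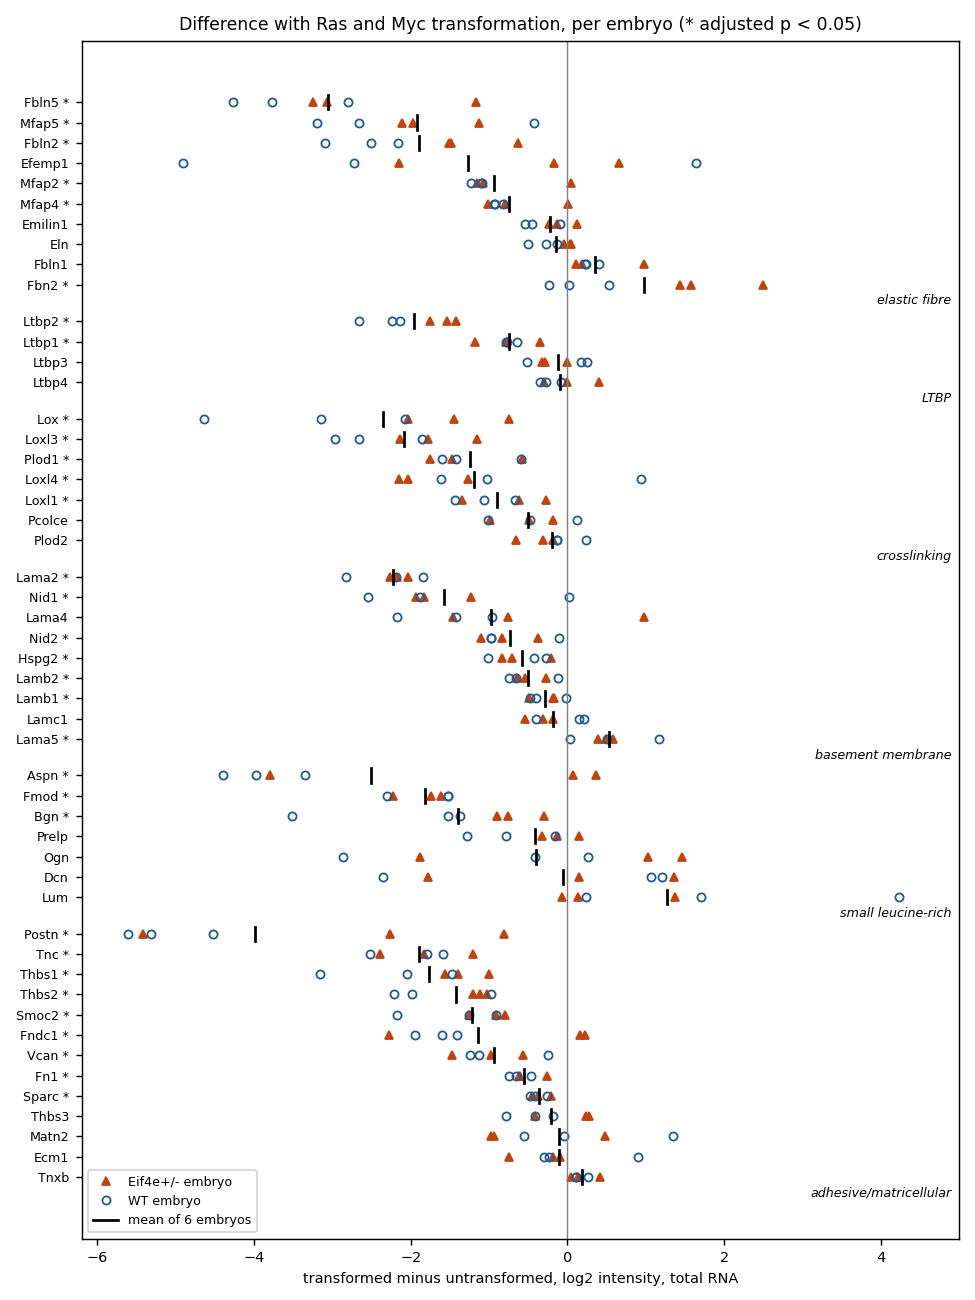
Difference between the transformed and the untransformed culture of each embryo (log2 intensity, total RNA) for 50 matrix genes, grouped by role. Triangles are Eif4e+/- embryos, open circles WT embryos and bars the mean of 6 embryos, and asterisks mark an adjusted p under 0.05. Most points lie left of 0, with Postn reaching a mean of -3.99 and Fbn2 and Lama5 as the genes called higher.

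Among adhesive and matricellular genes, periostin fell the most. Postn, a matricellular protein made by fibroblasts of connective tissue, lay at 11.68, 10.03 and 7.16 in transformed Eif4e+/- cultures and 7.12, 8.10 and 7.01 in transformed WT cultures. It lay at 12.49, 12.30 and 12.57 in untransformed Eif4e+/- cultures and 12.43, 12.62 and 12.61 in untransformed WT cultures. Untransformed cultures were tightly grouped, and all transformed ones were below them, but Eif4e+/- cultures 1 and 2 stayed well above the other 4. The mean difference was -3.99 ± 0.54 (SE, adjusted p = 0.00237), over falls of 0.81 to 5.61 in single embryos. Transformed levels exceeded the array median on 3 of 6 arrays, so no fold is given. Tnc, which encodes the matricellular protein tenascin-C, was at 9.99, 11.40 and 10.56 in transformed Eif4e+/- cultures and 10.69, 10.71 and 10.18 in transformed WT cultures. Its values were 12.38, 12.59 and 12.39 in untransformed Eif4e+/- cultures and 12.48, 12.30 and 12.69 in untransformed WT cultures. No transformed culture reached an untransformed one, and the difference was -1.89 ± 0.18 (adjusted p = 0.000676).

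Thbs1, whose product thrombospondin-1 can activate latent TGF-beta, measured 11.72, 12.21 and 11.44 in transformed Eif4e+/- cultures and 9.97, 11.69 and 11.13 in transformed WT cultures. Untransformed levels were 13.12, 13.21 and 13.00 in Eif4e+/- cultures and 13.13, 13.16 and 13.18 in WT cultures, which is 0.13 to 0.27 below the highest value on the array. The groups were apart by -1.77 ± 0.20 (adjusted p = 0.00139), with the lowest level in transformed WT culture 1. Thrombospondin-2 (Thbs2, -1.42 ± 0.15), the calcium-binding protein Smoc2 (-1.22 ± 0.16), the proteoglycan versican (Vcan, -0.94 ± 0.16), fibronectin (Fn1, -0.56 ± 0.07) and Sparc (-0.36 ± 0.06) also fell, each in all 6 embryos, with adjusted p of 0.00112 to 0.00597. Untransformed levels lay 0.15 to 0.25 below the highest value on the array for Fn1 and 0.07 to 0.18 below it for Sparc, and on polysomes these genes fell by 1.99 and 1.27. Fndc1, a protein with fibronectin type III domains, fell by 1.14 on average (adjusted p = 0.0367), but was 0.16 and 0.22 higher in Eif4e+/- embryos 1 and 2. Without WT embryo 1, 2 or 3 its adjusted p was 0.0901, 0.0751 and 0.0753. Tenascin-X (Tnxb, 0.18 ± 0.06), thrombospondin-3 (Thbs3, -0.21 ± 0.12), Ecm1 (-0.11 ± 0.17) and matrilin-2 (Matn2, -0.11 ± 0.29) did not pass the test.

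In the elastic fibre group 2 of 4 fibulins, Fbln5 and Fbln2, and the microfibril-associated proteins Mfap2, Mfap4 and Mfap5 were lower, while fibrillin-2 was higher. Fbln5, which helps elastin assemble on microfibrils, lay at 8.05, 9.98 and 8.02 in transformed Eif4e+/- cultures and 7.20, 7.80 and 8.10 in transformed WT cultures. Its untransformed values were 11.30, 11.15 and 11.08 in untransformed Eif4e+/- cultures and 11.46, 11.57 and 10.90 in untransformed WT cultures. The 2 states did not overlap, and Eif4e+/- embryo 2 fell least. The mean difference was -3.06 ± 0.31 (adjusted p = 0.000873), or 8.32-fold, with transformed levels above the array median on 5 of 6 arrays. Fbln2, a fibulin that binds fibronectin and basement membrane proteins, measured 10.53, 11.15 and 10.14 in transformed Eif4e+/- cultures and 8.92, 9.55 and 9.63 in transformed WT cultures. It measured 12.02, 11.78 and 11.66 in untransformed Eif4e+/- cultures and 12.02, 12.06 and 11.79 in untransformed WT cultures. It differed by -1.90 ± 0.16 (adjusted p = 0.000491), again with no overlap, and the 3 WT embryos had the 3 largest falls.

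Mfap5, a microfibril-associated glycoprotein, was at 7.14, 8.14 and 6.73 in transformed Eif4e+/- cultures and 6.45, 6.42 and 8.85 in transformed WT cultures. Without transformation it was at 9.12, 9.27 and 8.84 in untransformed Eif4e+/- cultures and 9.65, 9.08 and 9.28 in untransformed WT cultures. Transformed WT culture 3 alone reached the range of the untransformed cultures, and the mean difference was -1.92 ± 0.35 (adjusted p = 0.00704). Its relatives Mfap2 (-0.94 ± 0.16) and Mfap4 (-0.75 ± 0.13) fell in 5 of 6 embryos, the exception being Eif4e+/- embryo 2. Fbn2, the fibrillin of developing microfibrils, rose. Its levels were 10.08, 10.93 and 10.80 in transformed Eif4e+/- cultures and 8.65, 9.70 and 8.47 in transformed WT cultures. They were 8.50, 8.43 and 9.37 in untransformed Eif4e+/- cultures and 8.63, 9.16 and 8.70 in untransformed WT cultures. Transformed Eif4e+/- cultures stood above all others, while 2 of the 3 transformed WT cultures lay within the range of the untransformed ones. The mean rise was 0.97 ± 0.16 (adjusted p = 0.00512). Elastin itself (Eln, -0.15 ± 0.06), Emilin1 (-0.22 ± 0.08), Fbln1 (0.35 ± 0.12) and Efemp1 (-1.27 ± 0.80) did not pass. Fbln1 was higher in all 6 embryos, with an adjusted p of 0.0609. Efemp1, which encodes fibulin-3, differed between embryos by -4.90 in WT embryo 1 to 1.64 in WT embryo 3, and its mean difference without WT embryo 3 was -2.18 ± 0.47 (adjusted p = 0.0158). Emilin1 also passed without that embryo (-0.29 ± 0.07, adjusted p = 0.0272).

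The LTBPs split in pairs. Ltbp2, which binds microfibrils, lay at 8.66, 8.99 and 8.34 in transformed Eif4e+/- cultures and 7.52, 8.21 and 8.31 in transformed WT cultures. It lay at 10.20, 10.41 and 10.11 in untransformed Eif4e+/- cultures and 10.19, 10.45 and 10.44 in untransformed WT cultures. The 2 states were more than 1 log2 unit apart, with a difference of -1.96 ± 0.09 (adjusted p = 6.1e-05), and its SE of 0.09 was small for a change of this size. Ltbp1, which carries latent TGF-beta, was at 10.37, 10.88 and 9.82 in transformed Eif4e+/- cultures and 10.37, 10.38 and 10.25 in transformed WT cultures. Its other cultures had 11.15, 11.23 and 11.00 in untransformed Eif4e+/- cultures and 11.02, 11.17 and 11.02 in untransformed WT cultures. It fell by 0.75 ± 0.10 (adjusted p = 0.00258) in all 6 embryos. Ltbp3 lay at 8.37, 8.53 and 8.38 in transformed Eif4e+/- cultures and 8.63, 8.26 and 8.71 in transformed WT cultures. Against these stood 8.65, 8.53 and 8.71 in untransformed Eif4e+/- cultures and 8.38, 8.77 and 8.53 in untransformed WT cultures. The states overlapped fully, and neither Ltbp3 (-0.12 ± 0.11) nor Ltbp4 (-0.10 ± 0.09) passed.

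Of 7 genes whose products crosslink or process matrix, 5 were lower. Lox, the lysyl oxidase that crosslinks collagen and elastin, measured 9.95, 10.87 and 9.40 in transformed Eif4e+/- cultures and 6.82, 8.48 and 9.52 in transformed WT cultures. Untransformed cultures held a narrow band, 11.41, 11.62 and 11.43 in untransformed Eif4e+/- cultures and 11.46, 11.62 and 11.59 in untransformed WT cultures. All transformed cultures fell below that band, WT culture 1 the furthest, and the mean difference was -2.35 ± 0.32 (adjusted p = 0.00255), or 5.09-fold. Transformed levels of Lox exceeded the array median on 5 of 6 arrays. Loxl3, a related oxidase, was at 9.10, 9.53 and 8.53 in transformed Eif4e+/- cultures and 8.04, 8.35 and 8.82 in transformed WT cultures. In the other state it was at 10.88, 10.68 and 10.67 in untransformed Eif4e+/- cultures and 11.01, 11.01 and 10.68 in untransformed WT cultures. Its fall of 2.09 ± 0.17 (adjusted p = 0.000477) was present in every embryo. Plod1, a lysyl hydroxylase that prepares collagen for crosslinking, lay at 8.10, 8.99 and 7.76 in transformed Eif4e+/- cultures and 8.10, 8.07 and 9.00 in transformed WT cultures. Against these, it lay at 9.57, 9.57 and 9.52 in untransformed Eif4e+/- cultures and 9.52, 9.68 and 9.59 in untransformed WT cultures. Eif4e+/- embryo 2 and WT embryo 3 fell by 0.58 and 0.59, the other 4 by 1.42 to 1.75. The mean was -1.24 ± 0.18 (adjusted p = 0.00353). Loxl1 fell too (-0.90 ± 0.15, adjusted p = 0.00577). Loxl4 fell by 1.19 ± 0.32 (adjusted p = 0.0295), but not in WT embryo 3, where it was 0.94 higher, and the mean of its 2 probe sets did not pass (-0.89 ± 0.29, adjusted p = 0.0563). Without Eif4e+/- embryo 1 or 3 or WT embryo 1 or 2 its adjusted p was 0.0723 to 0.0961. The hydroxylase Plod2 (-0.20 ± 0.09) and Pcolce (-0.51 ± 0.16), which enhances procollagen processing, did not pass, Pcolce at an adjusted p of 0.0529 (-0.65 ± 0.14, adjusted p = 0.0148, without WT embryo 3).

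Of 9 basement membrane genes 6 fell and 1 rose, with a median difference of -0.58. Lama2, the laminin alpha-2 chain, lay at 6.39, 6.43 and 6.16 in transformed Eif4e+/- cultures and 6.16, 6.40 and 6.29 in transformed WT cultures. It lay at 8.43, 8.61 and 8.42 in untransformed Eif4e+/- cultures and 8.99, 8.24 and 8.48 in untransformed WT cultures. The 2 states were far apart with little spread among embryos, and the difference was -2.22 ± 0.12 (adjusted p = 0.000142). Its transformed levels were below the array median on all 6 arrays. Nid1, whose product nidogen-1 links laminin to collagen IV, had 9.94, 10.52 and 9.72 in transformed Eif4e+/- cultures and 9.95, 9.11 and 11.74 in transformed WT cultures. Untransformed cultures had 11.87, 11.76 and 11.55 (Eif4e+/-) and 11.83, 11.66 and 11.72 (WT). Transformed WT culture 3 lay within the untransformed range, whereas the other 5 embryos fell by 1.23 to 2.55, for a mean of -1.57 ± 0.31 (adjusted p = 0.00987). Lama4 was at 7.47, 9.43 and 7.31 in transformed Eif4e+/- cultures and 6.19, 7.92 and 7.30 in transformed WT cultures. It was at 8.23, 8.46 and 8.77 in untransformed Eif4e+/- cultures and 8.36, 8.88 and 8.72 in untransformed WT cultures. Eif4e+/- culture 2 was 0.97 higher when transformed and the other 5 embryos lower, so that the mean of -0.97 ± 0.31 missed the threshold (adjusted p = 0.0545). Without that embryo it was -1.31 (adjusted p = 0.00722). Nid2 (-0.73 ± 0.14), the perlecan gene Hspg2 (-0.58 ± 0.12), Lamb2 (-0.50 ± 0.10) and Lamb1 (-0.29 ± 0.08) fell, and Lama5, the laminin alpha-5 chain, rose in all 6 embryos (0.53 ± 0.14, adjusted p = 0.0264). Lamc1, the shared gamma-1 chain, did not pass (-0.18 ± 0.10). The Hspg2 call was lost without Eif4e+/- embryo 3 (adjusted p = 0.0516), that of Lamb1 without any 1 embryo other than WT embryo 2 (0.059 to 0.109), and that of Lama5 without any 1 Eif4e+/- embryo or WT embryo 1 (0.0651 to 0.0859).

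Small leucine-rich proteoglycans differed among embryos. Aspn, which encodes the collagen-binding asporin, lay at 9.87, 9.80 and 6.70 in transformed Eif4e+/- cultures and 6.17, 7.46 and 6.94 in transformed WT cultures. Without transformation the values were 9.80, 9.43 and 10.50 in untransformed Eif4e+/- cultures and 10.56, 11.43 and 10.28 in untransformed WT cultures. Transformed Eif4e+/- cultures 1 and 2 kept untransformed levels, and the other 4 transformed cultures were 3.35 to 4.39 lower than their partners. The mean was -2.51 ± 0.53 (adjusted p = 0.0125). Bgn, the collagen-binding biglycan, measured 11.55, 12.02 and 11.44 in transformed Eif4e+/- cultures and 8.72, 10.99 and 10.78 in transformed WT cultures. Its untransformed values, 12.31, 12.32 and 12.33 in untransformed Eif4e+/- cultures and 12.24, 12.36 and 12.31 in untransformed WT cultures, hardly varied. Every transformed culture was lower, WT culture 1 by 3.52, and the mean was -1.40 ± 0.28 (adjusted p = 0.01). Fmod, or fibromodulin, was at 6.54, 6.62 and 6.54 in transformed Eif4e+/- cultures and 6.62, 6.53 and 6.59 in transformed WT cultures. The counterpart was 8.28, 8.24 and 8.78 in untransformed Eif4e+/- cultures and 8.15, 8.83 and 8.12 in untransformed WT cultures. It fell in every embryo by 1.52 to 2.30 (-1.82 ± 0.13, adjusted p = 0.000315) and, like Lama2, sat below the median on all 6 transformed arrays. Decorin (Dcn), lumican (Lum), osteoglycin (Ogn) and Prelp did not pass. Their embryos moved apart: Dcn differed by -2.35 in WT embryo 1 and by 1.36 in Eif4e+/- embryo 2, Ogn by -2.86 in WT embryo 2 and by 1.46 in Eif4e+/- embryo 1, and Lum by -0.07 in Eif4e+/- embryo 1 and by 4.23 in WT embryo 3. Lum exceeded the 40th percentile of the array on 0 of 6 untransformed arrays in either fraction. It met the filter only through transformed cultures, on 3 of 6 arrays in total and 2 of 6 in polysomal RNA. Its untransformed values thus lay at the floor, where a fall could hardly show. Without WT embryo 1 the Lum difference was 1.72 ± 0.40, from which no conclusion is drawn. Without WT embryo 3 Prelp passed as lower (-0.57 ± 0.10, adjusted p = 0.00906).

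**Figure D2:**
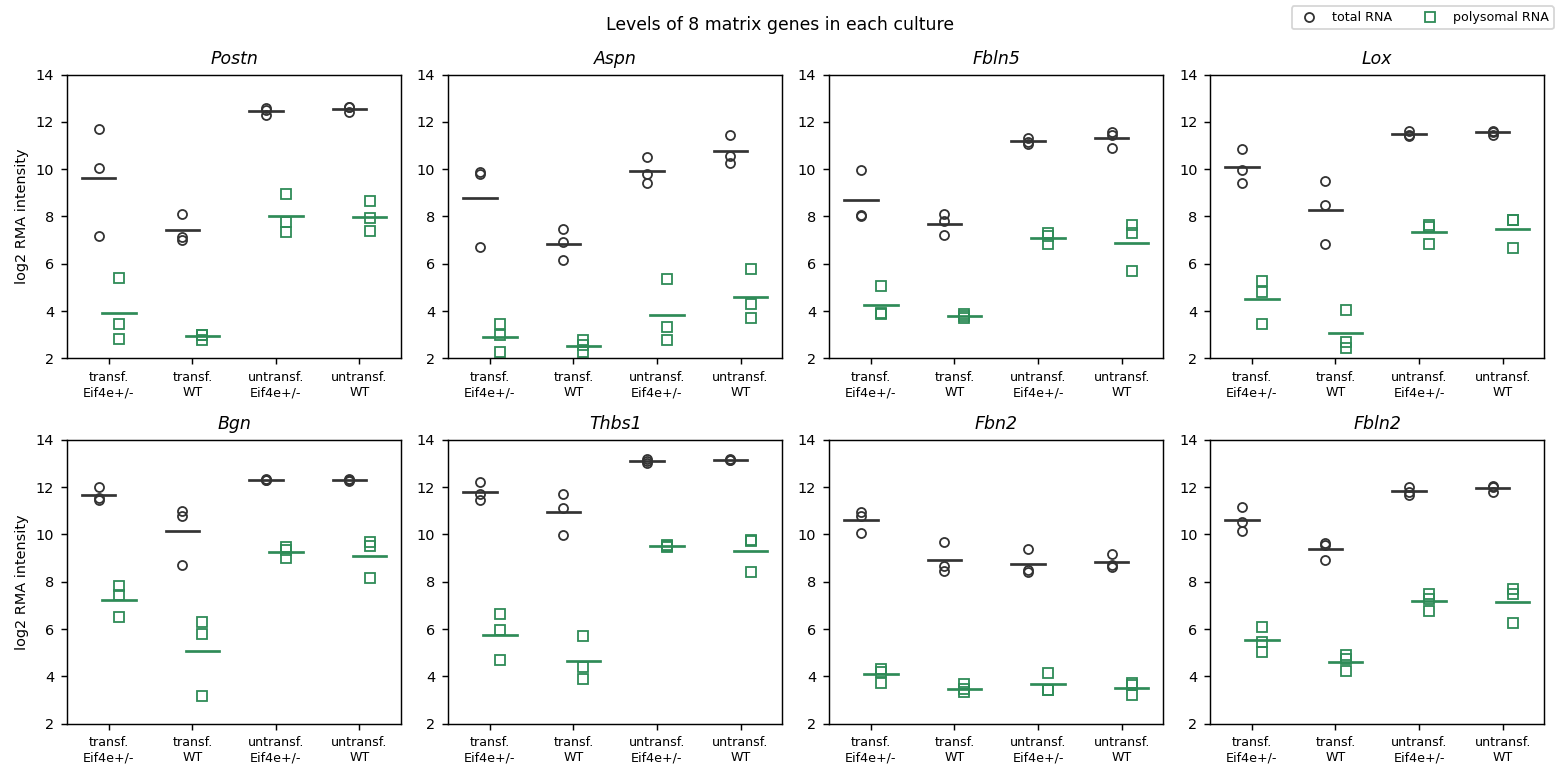
Levels of 8 matrix genes in each culture (log2 RMA intensity). Circles are total RNA, squares polysomal RNA, each symbol 1 culture and each bar the mean of 3, for transformed Eif4e+/-, transformed WT, untransformed Eif4e+/- and untransformed WT cultures. In total RNA untransformed cultures lie closer together than transformed ones, as for Postn between 7.01 and 11.68 when transformed, whereas in polysomal RNA several genes spread as much in untransformed cultures. The fractions have separate levels that cannot be compared as amounts.

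In total RNA, transformed cultures of the same genotype differed from each other more than untransformed ones did. The median within-group SD of the 50 genes in total RNA was 0.37 in transformed Eif4e+/- and 0.39 in transformed WT cultures, against 0.14 in untransformed Eif4e+/- and 0.15 in untransformed WT cultures. Over all genes tested the median was 0.13 in both transformed groups, 0.10 in untransformed Eif4e+/- and 0.09 in untransformed WT cultures. In polysomal RNA this was not so: the members' median SD was 0.33 in transformed Eif4e+/- and 0.30 in transformed WT cultures, against 0.32 and 0.41 in untransformed Eif4e+/- and WT cultures, and for TE it was 0.35 and 0.32 against 0.24 and 0.39. Over all genes the polysomal medians were 0.21 and 0.24 in transformed and 0.20 and 0.29 in untransformed Eif4e+/- and WT cultures. For TE they were 0.24 and 0.24 against 0.22 and 0.30. In total RNA, an SD above 1 log2 unit was found for 7 and 9 of the 50 genes in transformed Eif4e+/- and WT cultures (0.6% and 1.43% of all genes). In the untransformed ones it was found for 0 and 2 (0.0472% and 0.108%). The largest were those of Postn in transformed Eif4e+/- (2.29) and Lum in transformed WT cultures (2.23). Transformed Eif4e+/- culture 2 held the highest level of all 6 transformed cultures for 21 of 50 genes, and transformed WT culture 1 the lowest for 19. These 2 counts were not made over all genes. Smooth muscle and myofibroblast markers moved with transformation too: all 7 were lower, at a mean of 8.94, 9.39 and 8.39 in transformed Eif4e+/- and 7.65, 7.88 and 8.37 in transformed WT cultures, against 10.84 to 10.92 in untransformed Eif4e+/- and 10.83 to 11.04 in untransformed WT cultures. Of fibroblast markers 6 of 12 were lower. Of macrophage and leukocyte markers 4 of 7 were lower, led by Lyz2 (-3.97 ± 0.23), and 0 higher, but 2 had positive differences. Cd68 lay at 8.37 to 11.27 in transformed against 8.33 to 8.74 in untransformed cultures. Ptprc, Csf1r and Fcgr3 were below the array median in every untransformed culture (6.70 to 7.24), so they had little room to fall. Endothelial markers were lower in 2 and higher in 1 of 7. Their part in the matrix results was not tested.

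Both genotypes were also set against their own untransformed cells. In Eif4e+/- embryos 18 of 50 genes were lower and 1, Fbn2, was higher (background 8.58% lower and 5.68% higher). In WT embryos 25 were lower and 0 higher (background 9.08% and 7.62%). With 3 embryos each these counts depended on single embryos: the Eif4e+/- count was 5 without embryo 1 and 3 without embryo 3, and the WT count was 13 when either embryo 1 or embryo 2 was left out. In both genotypes 15 genes were called lower, and of the 30 lower over all embryos, 22 fell by more in WT than in Eif4e+/- cells. The shares over all genes are not given for these 2 counts, so neither is read as particular to the members. The difference itself, the transformation effect in Eif4e+/- minus that in WT, was positive in 33 of 50 genes (7933 of 14830 over all genes). Of the 50 genes 0 passed the adjusted test (limma, background 0.0%), with 7 at an unadjusted p under 0.05 (4.88% of all genes). The smallest unadjusted p belonged to Fbn2 (1.73 ± 0.32, unadjusted p = 0.0011, adjusted p = 0.916), for which the effect was 1.84 in Eif4e+/- and 0.11 in WT cells. Next were Ltbp2 (0.77 ± 0.17, unadjusted p = 0.00289) and Fbln2 (1.38 ± 0.32, unadjusted p = 0.0036), whose falls were smaller in Eif4e+/- cells (-1.57 and -1.21) than in WT cells (-2.34 and -2.59).

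In polysomal RNA 18 of 50 genes were lower and 0 higher in transformed cells (background 4.05% lower and 3.67% higher), with a median of -0.55 against 0.01 for all genes. All 18 were also lower in total RNA, and 12 genes lower in total RNA were not called on polysomes. Over all genes 601 were lower on polysomes and 2341 in total RNA, with 566 lower in both. The overlap is therefore not read as particular to the members. Without WT embryo 3 the members' count on polysomes was 28, and without the other single embryos it was 12 at the lowest. Adhesive and matricellular genes made up 8 of the 18. Postn was at 5.40, 3.47 and 2.84 in transformed Eif4e+/- cultures and 2.78, 3.00 and 3.00 in transformed WT cultures. On polysomes of the other state it was at 7.75, 7.35 and 8.96 in untransformed Eif4e+/- cultures and 7.93, 8.64 and 7.37 in untransformed WT cultures. The states did not overlap, and the difference was -4.59 ± 0.42 (adjusted p = 0.00133). Transformed cultures exceeded the array median on 1 of 6 arrays, so no fold is given. The next largest were Thbs1 (-4.21 ± 0.32), Lox (-3.61 ± 0.41), Bgn (-3.02 ± 0.49), Fbln5 (-2.95 ± 0.29) and Tnc (-2.75 ± 0.21), with adjusted p of 0.000856 to 0.0112. Without Eif4e+/- embryo 3 the Bgn call was lost (adjusted p = 0.067).

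TE changed in few members, 5 downwards and 5 upwards of 50 (background 0.971% lower and 1.81% higher, limma). Thbs1 had the largest fall. Its TE was -5.79, -5.58 and -6.75 in transformed Eif4e+/- cultures and -6.08, -6.00 and -6.73 in transformed WT cultures. It was -3.63, -3.70 and -3.44 in untransformed Eif4e+/- cultures and -3.35, -3.43 and -4.76 in untransformed WT cultures. Every transformed culture was lower than every untransformed one, by -2.44 ± 0.21 on average (adjusted p = 0.000809). Untransformed total levels of Thbs1, Fn1 and Sparc were within 0.27 of the highest value on each total array, and what this nearness does to their differences was not tested. Bgn (-1.63 ± 0.27), Lox (-1.26 ± 0.25), Sparc (-0.91 ± 0.14) and Tnc (-0.87 ± 0.19) fell as well, with adjusted p of 0.0125 to 0.049, so for these genes polysomal RNA fell by more than total RNA. Over all 50 members the median TE difference was -0.07, with 28 negative and 22 positive, against a median of 0.01 for all genes. Over the 18 genes lower in both fractions it was -0.59, and 13 of 18 were negative. The 566 genes of the whole table that were lower in both had -0.08 and 55.7% negative. Both of these sets were picked by a polysomal fall, which itself favours a negative TE difference, so no conclusion is drawn from them.

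The 5 genes with higher TE were genes whose total RNA fell while polysomal RNA did not pass the test. For Lama2 TE was -3.36, -3.34 and -2.93 in transformed Eif4e+/- cultures and -3.10, -3.67 and -3.40 in transformed WT cultures. It was -5.29, -5.35 and -5.22 in untransformed Eif4e+/- cultures and -5.88, -4.72 and -5.65 in untransformed WT cultures. The states did not overlap (2.05 ± 0.22, adjusted p = 0.00268). Fmod had a TE of -3.67, -3.63 and -3.13 in transformed Eif4e+/- cultures and -3.71, -3.39 and -3.54 in transformed WT cultures. In the untransformed state the TE was -4.96, -5.03 and -5.19 in untransformed Eif4e+/- cultures and -4.84, -5.03 and -5.06 in untransformed WT cultures. Again there was no overlap (1.51 ± 0.16, adjusted p = 0.00268). Loxl4 (1.19 ± 0.19), Fndc1 (1.19 ± 0.25) and Aspn (1.02 ± 0.21) followed, with overlap between states. The polysomal level exceeded the array median on 1 of 12 arrays for Lama2, 2 for Fmod, 0 for Fndc1, 6 for Loxl4 and 5, of which 4 untransformed, for Aspn. The part of low polysomal levels in these TE differences was not tested. Single embryos moved both counts. Leaving out WT embryo 1, 2 or 3 gave 3, 2 and 12 lower genes, and leaving out Eif4e+/- embryo 1, 2 or 3 gave 2, 1 and 1. Higher genes numbered 3 with WT embryo 1 left out, 8 with WT embryo 3 left out and 2 with any 1 Eif4e+/- embryo left out. Under all 14 alternatives Thbs1 remained lower and Lama2 and Fmod higher.

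**Figure D3:**
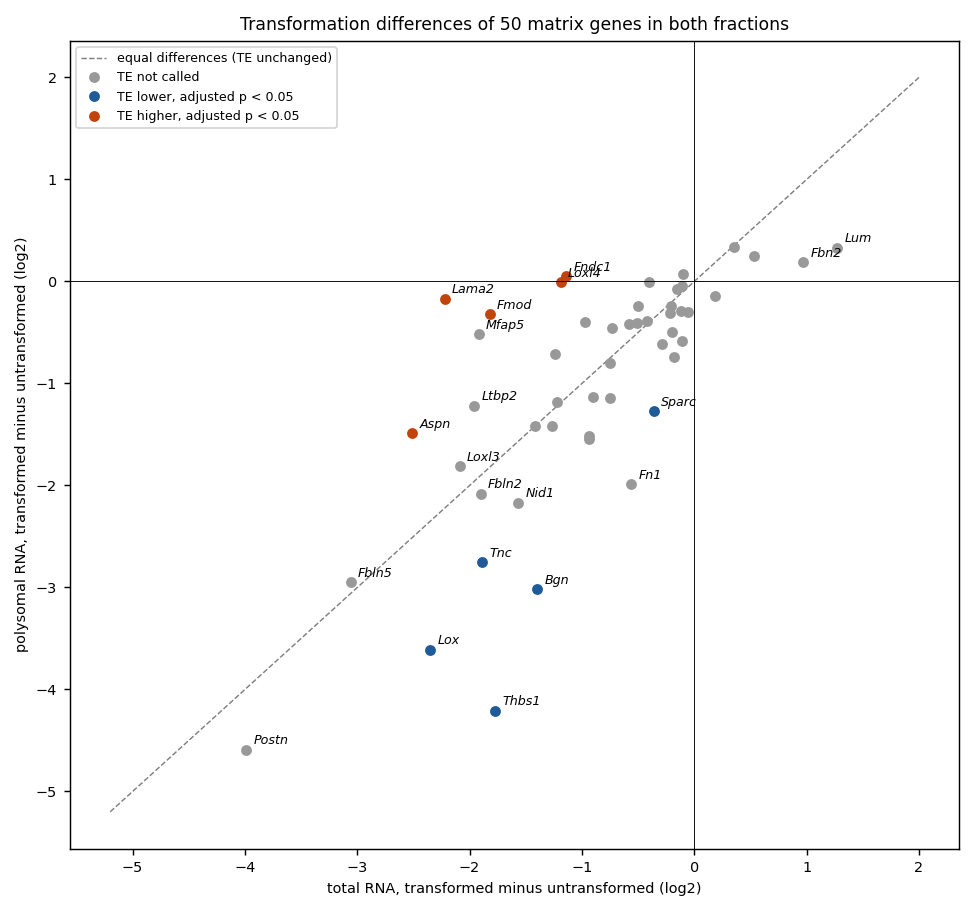
Transformed minus untransformed difference (log2) in polysomal RNA against that in total RNA for 50 matrix genes, 1 point per gene. Points below the dashed line of equal differences have lower TE. Genes called lower in TE (Thbs1, Bgn, Lox, Sparc and Tnc) lie below it and those called higher (Lama2, Fmod, Loxl4, Fndc1 and Aspn) above it.

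No member passed the adjusted test for genotype, in either state or any measure (0 of 50 in each of 6 comparisons, limma). The background was 0.0472% (7 of 14830 genes) in total RNA of transformed cells and 0.0% in the other 5. In transformed cells 32 of 50 genes had a positive difference in total RNA, Eif4e+/- minus WT (8010 of 14830 over all genes). The median was 0.12 against 0.01 for all genes, and 18 had an unadjusted p under 0.05 (9.3% of all genes). The fit shares 1 spread over both states, while the members' median SD was 0.37 and 0.39 in transformed but 0.14 and 0.15 in untransformed groups. For transformed cells the SE and p of members can therefore be too small, and the 18 are not read as a result. Without Eif4e+/- embryo 2, an alternative chosen after seeing the data, 26 of the 50 differences were positive with a median of 0.03. The groups did not overlap for 11 of 50 genes (background 10.2%), for each of which an exact two-sided permutation test gives p = 0.1, the smallest that 3 against 3 cultures allow. Fbln2 had the smallest unadjusted p. With the values given above, its Eif4e+/- cultures all exceeded the WT ones, by 1.25 ± 0.24 (unadjusted p = 0.000336, adjusted p = 0.156). Fbn2 likewise did not overlap (1.67 ± 0.35, adjusted p = 0.204), and without WT embryo 2 it was called (2.04 ± 0.31, adjusted p = 0.0356). That embryo gave the WT culture nearest the Eif4e+/- values, so its removal was bound to widen the difference and no conclusion is drawn from the call. Plod2 lay at 10.67, 11.21 and 10.95 in transformed Eif4e+/- cultures and 11.55, 11.51 and 11.26 in transformed WT cultures. Here the Eif4e+/- cultures were below the WT ones without overlap (-0.50 ± 0.14, adjusted p = 0.311).

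Other genes had mean differences as large as these with overlapping groups. Postn (2.22 ± 0.83), Aspn (1.94 ± 0.73) and Lox (1.80 ± 0.54) overlapped between the genotypes: Eif4e+/- culture 3 lay within the WT range for Postn and Aspn, and below WT culture 3 for Lox. Bgn did not overlap (1.51 ± 0.45, adjusted p = 0.352). Fndc1 was at 8.23, 8.20 and 6.62 in transformed Eif4e+/- cultures and 6.22, 6.54 and 6.24 in transformed WT cultures. All 3 Eif4e+/- cultures were above the WT ones, culture 3 by the least, with a difference of 1.35 ± 0.38. Without that embryo it was 1.88 ± 0.13 (limma, adjusted p = 0.00262). Leaving out the culture nearest the WT values was bound to widen the difference and was singled out after seeing the data, so no conclusion is drawn from it. In the other direction Lum (-1.62 ± 0.90, adjusted p = 0.606) and Loxl4 (-1.43 ± 0.48, adjusted p = 0.408) overlapped as well, each with its highest level in transformed WT culture 3. All 10 elastic fibre genes had positive differences (8010 of 14830 over all genes), 4 of them without overlap (background 10.2%). Their smallest adjusted p was 0.156 (limma). This role was not recounted without Eif4e+/- embryo 2, whose transformed culture was the highest of all 6 for Fbln5, Fbln2 and Mfap2. Neither count is read as a result.

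**Figure D4:**
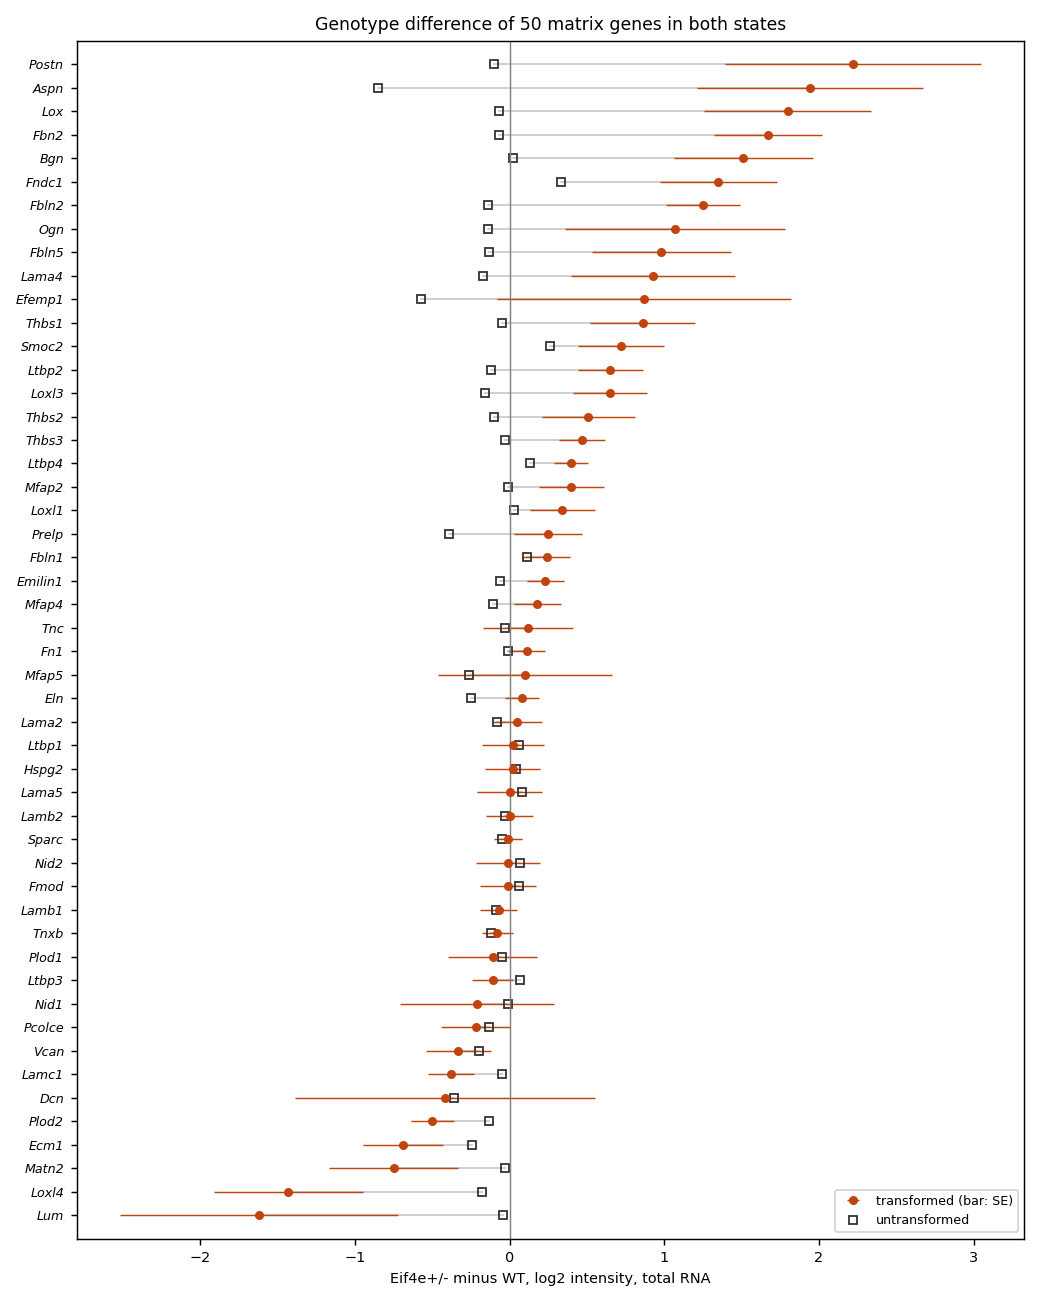
Eif4e+/- minus WT difference (log2 intensity, total RNA) of 50 matrix genes in transformed cells (filled circles, bars are SE) and untransformed cells (open squares). Untransformed differences lie between -0.85 and 0.33, transformed ones between -1.62 and 2.22, and no gene passed the adjusted test in either state.

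In polysomal RNA of transformed cells 5 of 50 genes did not overlap between genotypes (background 8.51%), and 5 had an unadjusted p under 0.05 (3.22% of all genes). Bgn was at 7.42, 7.81 and 6.50 in transformed Eif4e+/- cultures and 3.19, 6.28 and 5.79 in transformed WT cultures. The lowest Eif4e+/- culture exceeded the highest WT culture (2.16 ± 0.66, unadjusted p = 0.00659, adjusted p = 1.0). For Lox the polysomal values were 4.80, 5.28 and 3.46 in transformed Eif4e+/- cultures and 2.42, 2.70 and 4.06 in transformed WT cultures. WT culture 3 was above Eif4e+/- culture 3, so the groups overlapped (1.46 ± 0.52, unadjusted p = 0.0148). Polysomal Fbn2 was at 4.18, 4.33 and 3.74 in transformed Eif4e+/- cultures and 3.47, 3.67 and 3.32 in transformed WT cultures. These did not overlap (0.60 ± 0.24, unadjusted p = 0.0267). In TE of transformed cells, also 5 of 50 did not overlap (background 8.3%). Fndc1 had a lower TE in Eif4e+/- cells (-1.25 ± 0.32, unadjusted p = 0.0014), at -5.16, -4.97 and -3.76 in transformed Eif4e+/- cultures and -2.98, -3.68 and -3.47 in transformed WT cultures. The TE of Fbn2 was -5.90, -6.60 and -7.06 in transformed Eif4e+/- cultures and -5.18, -6.02 and -5.16 in transformed WT cultures. Its groups overlapped (-1.07 ± 0.30, unadjusted p = 0.00318). Loxl4 had -5.29, -5.41 and -4.47 in transformed Eif4e+/- cultures and -5.97, -5.64 and -6.98 in transformed WT cultures. All Eif4e+/- values were above the WT ones (1.14 ± 0.35, unadjusted p = 0.00588). The adjusted p was 1.0 for each of these. For Fndc1 the polysomal difference was 0.10 ± 0.18, beside 1.35 ± 0.38 in total RNA. Among the 6 transformed cultures the polysomal level exceeded the array median on 0 arrays for Fndc1, 4 for Fbn2 and 3 for Loxl4. What such low polysomal levels do to these genotype differences in TE was not tested.

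In untransformed cells the genotypes were close. The spread shared over both states can make the SE and p of members too large here in total RNA, so the lack of calls says little. Total RNA differences were between -0.85 (Aspn) and 0.33 (Fndc1), with a median of -0.06 and 38 of 50 negative (8082 of 14830 over all genes). For 1 gene, Ecm1, the groups did not overlap (background 10.9%). The smallest unadjusted p were those of Eln (-0.25 ± 0.11, unadjusted p = 0.0453), Prelp (-0.39 ± 0.22) and Tnxb (-0.12 ± 0.10). Eln lay at 7.72, 7.45 and 7.74 in untransformed Eif4e+/- cultures and 7.87, 8.05 and 7.73 in untransformed WT cultures. Prelp lay at 7.48, 7.76 and 7.35 in untransformed Eif4e+/- cultures and 7.92, 8.45 and 7.40 in untransformed WT cultures. Tnxb lay at 7.02, 6.93 and 6.83 in untransformed Eif4e+/- cultures and 7.10, 6.95 and 7.10 in untransformed WT cultures. Each pair of groups overlapped. In TE 39 of 50 genes had a positive difference (8346 of 14830 over all genes). The median was 0.16 against 0.03 for all genes, and 5 of 50 did not overlap (background 5.58%). The count of positive differences rested on untransformed WT culture 3, whose members' mean TE was -5.09, beside -4.52 and -4.46 in WT cultures 1 and 2 and -4.54, -4.74 and -4.30 in the Eif4e+/- cultures. Without that embryo 21 of 50 were positive with a median of -0.05, and without Eif4e+/- embryo 3 it was 28 with a median of 0.04, against 0.07 and 0.06 for all genes. Pcolce had the smallest unadjusted p. Its TE was -3.48, -3.88 and -3.73 in untransformed Eif4e+/- cultures and -4.36, -4.24 and -4.54 in untransformed WT cultures. The Eif4e+/- values were all higher (0.68 ± 0.21, unadjusted p = 0.00579, adjusted p = 1.0). Smoc2 had a TE of -3.81, -4.07 and -3.28 in untransformed Eif4e+/- cultures and -4.07, -4.09 and -4.52 in untransformed WT cultures, with no overlap although the closest values are equal at 2 decimals (0.51 ± 0.26). That of Sparc was -2.33, -2.65 and -2.25 in untransformed Eif4e+/- cultures and -2.73, -2.49 and -2.97 in untransformed WT cultures. There the groups overlapped (0.32 ± 0.21). In polysomal RNA 2 of 50 did not overlap (background 5.74%), and the smallest p were those of Smoc2 (0.77 ± 0.28), Pcolce (0.56 ± 0.30) and Prelp (-0.37 ± 0.23). Smoc2 on polysomes was at 5.01, 5.54 and 5.95 in untransformed Eif4e+/- cultures and 4.51, 4.97 and 4.72 in untransformed WT cultures. Eif4e+/- cultures were the higher ones throughout. Untransformed WT culture 1 was 1 of the 2 polysomal arrays with the smallest spread over probe sets, the other being transformed WT culture 3.

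The transformation effect on polysomal RNA and TE was also compared between genotypes, and 0 of 50 genes passed in either (background 0.0%). At an unadjusted p under 0.05 there were 0 of 50 in polysomal RNA (2.12% of all genes) and 9 in TE (1.95%). In polysomal RNA the smallest p were those of Pcolce (-0.87 ± 0.40), Bgn (1.99 ± 0.98) and Lox (1.56 ± 0.83), written as the effect in Eif4e+/- minus that in WT cells. In TE they were those of Aspn (-1.65 ± 0.43), Fbn2 (-1.27 ± 0.36) and Pcolce (-0.77 ± 0.27). Aspn had a TE of -6.42, -6.82 and -4.43 in transformed Eif4e+/- cultures and -3.90, -4.70 and -4.38 in transformed WT cultures. Without transformation it was -6.48, -6.65 and -5.12 in untransformed Eif4e+/- cultures and -6.28, -5.65 and -6.59 in untransformed WT cultures. Transformed Eif4e+/- cultures 1 and 2 were not above the untransformed range, unlike the other 4 transformed cultures, and these are the cultures in which its total RNA had not fallen.

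In 3 lists of other genes around the matrix, 0 genes were higher in total RNA of transformed cells. Of 18 measured collagen-modifying genes, 14 were lower in transformed cells (background 15.8%), with a median of -0.58. Tll1, a tolloid-like protease that cleaves procollagen and activates lysyl oxidase, had the largest fall (-5.22 ± 0.11, adjusted p = 1.17e-05), before the prolyl hydroxylase subunit P4ha3 (-2.87 ± 0.21). Of 50 other matrix glycoproteins 14 were lower, with a median of -0.06, led by Cthrc1 (-2.50 ± 0.33) and the matricellular Ccn2 (-2.49 ± 0.14). Of 11 TGF-beta response genes 8 were lower, with a median of -0.91, led by Ccn2 and Tgfb1i1 (-2.34 ± 0.17). Ltbp1 and Ccn2 stood in that list as well as in a matrix list. These lists were not independent of earlier results on the same arrays.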

How the data were processed

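Affymetrix Mouse Gene 1.0 ST arrays (24) measured total and heavy polysomal RNA of 12 cultures. Cells for polysomes were given 100 µg/ml cycloheximide before a 10 to 50% sucrose gradient, per the labels' protocols. The deposited values are log2 intensities made with RMA, per the submitters' processing notes, and the RMA version, chip definition and probe set filter are not given in the sources used here. The table holds 25668 probe sets, to which the platform annotation gives 1 gene symbol (20777), several (232) or none (4659). Where a gene had more than 1 probe set (564 genes), the brightest was kept. A gene entered the tests if it passed the 40th percentile of an array on 3 arrays or more.

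TE was computed as log2 polysomal minus log2 total of a culture. limma 3.58.1 (R 4.3.3) fitted linear models with moderated variances, with Benjamini-Hochberg adjustment over all 14830 genes. Transformation effects and their difference between genotypes used embryo as a block (4 residual degrees of freedom), since the labels match both states by embryo, and genotype effects used 4 group means (8). Deviations of an embryo's states from their group means correlated at -0.0584 to 0.219 in total RNA, -0.438 to 0.062 in polysomal RNA and -0.413 to 0.0972 in TE. Single genes were also compared with exact permutation tests. Arrays are 1 per culture and fraction, and their number limits the precision.

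For each role, values in every culture are given for the 3 genes with the largest transformation difference in total RNA, and for the 3 genes with the smallest unadjusted p in each genotype comparison, in each difference of transformation effects and in the TE effect of transformation. Culture values already given are not repeated. Fbn2, Bgn, Postn and others outside the rule for a comparison were named after their values were seen. The members and lists were chosen with earlier results of these data known. In all, 16 other settings were tried, among them quantile normalization, centring, no filter, probe set means, array weights, fits without the block and leaving out each embryo.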

Additional observations from a re-analysis of the deposited data

How the results depend on the processing

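Of the counts of called genes, 11 were 0 and say little of stability. For the 8 counts above 0, leaving out 1 embryo moved 20 of 48 values by over 1.5 times, and the other settings moved 3 of 59. Leaving out 1 embryo gave 27 to 32 lower and 1 to 2 higher genes in total RNA, 12 to 28 lower on polysomes, 1 to 12 lower and 2 to 8 higher in TE, 3 to 21 lower and 1 to 2 higher in Eif4e+/- embryos, 13 to 29 lower and 0 to 1 higher in WT embryos, and 0 to 1 called for genotype in total RNA of transformed cells. Array weights gave 11 genes lower and 8 higher in TE, and leaving out both polysomal arrays of small spread gave 8 lower. The cause was not tested, other than that fewer embryos enter a fit that leaves 1 out. Ltbp3 (-0.12, not called) ranged from -0.19 to 0.00 when 1 embryo was left out, and was 0.00 (adjusted p = 0.983) without WT embryo 2. Lama4 passed with array weights at -1.15 (adjusted p = 0.0258).

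The replicate block rests on the labels, which pair both states by embryo. Without the replicate block 31 genes were lower and 3 higher in total RNA, 22 lower on polysomes, 6 lower and 6 higher in TE, 24 lower in Eif4e+/- and 28 lower in WT embryos. With embryo number as a block, which pairs different animals across genotypes, 0 genes were called for genotype in all 6 comparisons. Each fraction has its own level, and 3 embryos per genotype leave few degrees of freedom.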
